A study of Mus musculus with 16 samples.

Results

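The replication-dependent histone genes were examined in RNA-Seq libraries of mouse mammary adipose tissue. The members were all genes of the expression matrix whose symbol begins with Hist1h, Hist2h, Hist3h or Hist4h, and 46 of the 23179 listed genes met this rule. GENCODE M21 holds 70 genes named in this way, and the other 24 were not analysed here. By class, the listed members comprised 3 linker histone H1 genes, 10 H2A genes, 13 H2B genes, 9 H3 genes and 11 H4 genes. By location, 33 carried the name of the Hist1 cluster on chromosome 13, 9 that of the Hist2 cluster on chromosome 3, 3 that of the Hist3 cluster on chromosome 11, and Hist4h4 was the single member on chromosome 6. Of the 46, 2 were annotated as pseudogenes (Hist1h2al and Hist3h2bb-ps).

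Wild-type C57BL/6N mice (female C57BL/6NCrl bought at 8 weeks of age, by the methods of the study) made up 4 groups with 4 libraries each. CON-LFD mice stayed on the control diet D12450J, whereas the 3 DIO groups first became obese on the 60% high-fat diet D12492. DIO-HFD mice stayed on that diet, DIO-LFD mice were moved to low-fat diet, and DIO-VSG mice had vertical sleeve gastrectomy, which removes part of the stomach, together with low-fat diet; all others had sham surgery. All mice, the controls included, received E0771 mammary cancer cells in the 4th fat pad at week 22, and the RNA came from the opposite, 9th fat pad, so no group was free of a tumor. The labels list the injected cell line although the sampled tissue was normal, and give no pooling of mice. The p-values measure the spread between these libraries.

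Histone proteins package DNA into nucleosomes, in which H2A, H2B, H3 and H4 form the core and H1 binds the linker DNA. Replication-dependent histone genes lie in clusters of short, mostly intronless genes and are best known for a burst of transcription during S phase, when new DNA must be packaged. Their mRNAs as a rule end in a conserved stem-loop, bound by SLBP, in place of a poly(A) tail. Some members also give polyadenylated transcripts that extend past the stem-loop, and these are known from non-dividing, differentiated cells. Adipose tissue is made up largely of non-dividing adipocytes, with immune, endothelial and stromal cells among them.

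The stem-loop is the feature that sets these mRNAs apart, so its sequence was read for members that the results below turn on. Each line gives the 26 bases around the match in the GENCODE M21 transcript (GRCm38), 5′ to 3′ on the strand of the gene. Capitals mark the paired stems, and the loop between them is in lower case.
Hist1h1c (chr13:23739507-23739532, plus strand): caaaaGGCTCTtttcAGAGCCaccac
Hist2h2aa2 (chr3:96239779-96239804, minus strand): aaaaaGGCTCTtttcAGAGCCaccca
Hist3h2a (chr11:58955167-58955192, plus strand): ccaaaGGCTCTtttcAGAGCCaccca
Hist1h2be (chr13:23585526-23585551, minus strand): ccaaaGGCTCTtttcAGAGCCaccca
Hist1h3e (chr13:23561898-23561923, minus strand): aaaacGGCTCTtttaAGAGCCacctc
Hist1h4h (chr13:23531453-23531478, plus strand): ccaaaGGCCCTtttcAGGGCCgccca
Hist4h4 (chr6:136803993-136804018, minus strand): acaaaGGCCCTtttcAGGGCCcacaa

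The histone 3′ stem-loop consensus was found in 33 of the 46 members, against 0.171% of all 55450 genes of the annotation. The stem-loop of Hist1h1c was shared by 18 members of the H1, H2A, H2B and H3 classes, and the stem-loop of Hist1h4h by 6 members, all of class H4. The transcript models differed in how far they ran past it. The end of the model lay within 100 bases of the stem-loop in 12 members, at least 500 bases past it in 12, and between these limits in 9. The annotated transcript of Hist1h1c went on for 840 bases after the stem-loop, that of Hist3h2a for 1643, that of Hist1h2be for 1861 and that of Hist4h4 for 2445, whereas those of Hist2h2aa2 and Hist1h4h ended 35 and 46 bases after it. No match was found in the models of the other 13 members, Hist1h2bc, Hist2h2be and Hist1h2al among them.

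Levels were very uneven. Normalized counts, that is read counts divided by the size factor of the library, were divided by transcript length in kb to compare genes. The mean over all 16 libraries ranged from 1.17 per kb (Hist1h2ac) to 2771 per kb (Hist2h2aa2), with a median of 16.9 per kb. After Hist2h2aa2 came Hist1h2bc (1671 per kb), Hist1h1c (1499), Hist1h4h (495.5), Hist1h2al (469) and Hist3h2a (313). In counts not divided by length, 9 members had a mean of at least 100 and together held 92.3% of all member counts, while the 30 members with a mean under 20 held 3.17%. The limit of 100 was chosen after the values were seen. In all, 22 members were at 0 reads in at least 1 library, where a count of 0 allows up to 3 reads.

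**Figure D1:**
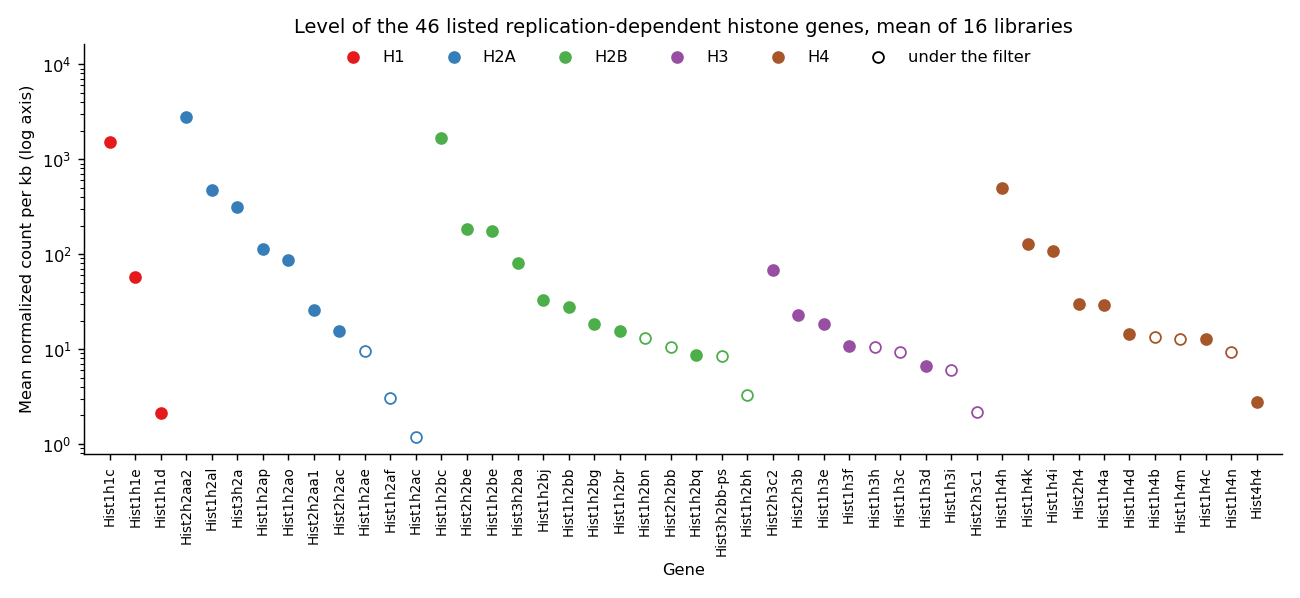
Mean normalized count per kb of transcript over 16 libraries (log axis) for each of the 46 members, grouped and coloured by histone class, with open circles for members under the filter on low values. In each class 1 member stood above the others, from Hist2h2aa2 at 2771 per kb to Hist2h3c2 at 68.3 per kb for H3.

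The 9 most counted members differed in their 3′ ends. They included 4 of the 12 members whose transcript ran at least 500 bases past the stem-loop (Hist1h1c, Hist1h1e, Hist1h2be and Hist3h2a), 2 of the 12 that ended within 100 bases of it (Hist2h2aa2 and Hist1h4h), 3 of the 13 without a match and 0 of the 9 in between. The median level per kb was 26.7 for the members ending close to the stem-loop, 18.4 for the 9 in between, 10.5 for those ending far from it and 12.9 for those without a match. The levels of these kinds were compared as descriptions only.

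All members together accounted for 0.0122% to 0.0245% of the normalized counts of a library. The kit of these libraries is one for total RNA, yet other RNAs that lack a poly(A) tail were also low: Rn7sk had 24.5 to 242 normalized counts, Rmrp 1.09 to 36.5, Rpph1 3.81 to 22.6 and Terc at most 10.9 (chosen after values were seen). Genes of histone variants, whose mRNAs are polyadenylated (for H2afx only in part), ranged from levels below those of the top members to far above them. H3f3b, which encodes the variant H3.3, had 12958 to 19496 normalized counts, H3f3a 6665 to 10218, H1f0 3919 to 7068, H2afz 2146 to 4364 and H2afx 622 to 1307, beside 1366 to 4250 for Hist1h1c. The part of RNA selection in the low levels was not tested.

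Several members could not be told apart by reads of 76 bases. Most of the 76-base stretches of the transcript occurred in another gene for 17 members, all of them for Hist2h2aa2 and Hist2h3c1, and none for Hist2h2be and Hist2h4. Hist2h2aa2 is a copy of Hist2h2aa1 and shares its sequence with the predicted gene Gm20634 as well. In the counts, Hist2h2aa2 had at least 658.9 in every library while Hist2h2aa1 was at 0 in 5 libraries and had at most 32.9. Of the neighbouring copies Hist1h2ao and Hist1h2ap, exactly 1 was at 0 in 13 of 16 libraries, and for Hist1h4m and Hist1h4n this held in 15 of 16. The sum of the latter pair varied less between libraries (coefficient of variation 48.7%) than either copy (109% and 136%). Hist2h3c1 had 63.3 normalized counts in DIO-LFD library 1 and 0 reads in the other 15. Values of single copies are therefore uncertain, and sums per class do not depend on how reads were divided among members of that class. They do depend on reads given to genes outside the class. Gm20634, which is in no class sum, had 242 to 972 normalized counts (chosen after values were seen).

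Promoters of RefSeq (GRCm38.p6) were available for 40 members, 41 promoters in all. The 150 bases before the start site are printed for 4 of the most counted members, each 5′ to 3′ on the strand of its gene, as examples from 3 histone classes with and without the motifs searched. Capitals mark a CCAAT box, a TATA box (searched as TATAAA) or the octamer (searched as ATGCAAAT), each on either strand.
Hist1h1c (chr13:23738657-23738806, plus strand): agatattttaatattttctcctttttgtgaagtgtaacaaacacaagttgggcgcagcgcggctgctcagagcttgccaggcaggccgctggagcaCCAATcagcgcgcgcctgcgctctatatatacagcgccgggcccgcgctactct
Hist2h2aa2 (chr3:96240375-96240524, minus strand): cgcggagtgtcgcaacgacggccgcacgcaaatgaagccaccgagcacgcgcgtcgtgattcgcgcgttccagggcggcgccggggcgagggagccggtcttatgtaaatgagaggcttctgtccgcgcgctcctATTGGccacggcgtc
Hist3h2a (chr11:58954535-58954684, plus strand): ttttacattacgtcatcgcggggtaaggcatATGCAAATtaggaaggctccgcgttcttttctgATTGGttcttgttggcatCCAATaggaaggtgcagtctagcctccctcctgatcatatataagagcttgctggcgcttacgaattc
Hist1h4h (chr13:23530894-23531043, plus strand): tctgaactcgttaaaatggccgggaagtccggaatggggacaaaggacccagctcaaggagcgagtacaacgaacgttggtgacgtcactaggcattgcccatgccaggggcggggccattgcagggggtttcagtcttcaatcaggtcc

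Within 250 bases before the start, CCAAT occurred in 78.0% of the members' promoters and in 33.8% of all 32851 promoters of the table. It was present in every H1, H2A and H2B promoter, in 6 of 8 promoters of H3 and in 3 of 10 of H4. TATAAA occurred in 41.5% against 12.4%. The octamer ATGCAAAT, a sequence that POU transcription factors bind, occurred in 19.5% against 1.6%, in 4 H2A and 4 H2B promoters and in none of the other classes. The promoters of Hist1h1c and Hist2h2aa2 held CCAAT alone, that of Hist3h2a held CCAAT and the octamer, and that of Hist1h4h held none of these 3 motifs. A match is a description of the sequence and not a bound site. In 6 places 2 members lay head to head with starts 173 to 268 bases apart, and levels of such neighbours differed to unequal degrees. Hist1h2bc averaged 1671 normalized counts per kb beside Hist1h2ac at 1.17, Hist3h2a 313 beside Hist3h2bb-ps at 8.45, and Hist2h2be 185.4 beside Hist2h2ac at 15.4. In the other 3 places Hist1h2bg averaged 18.4 per kb beside Hist1h2ae at 9.60, Hist1h2ap 113 beside Hist1h2br at 15.6, and Hist1h2ao 86.6 beside Hist1h2bq at 8.69.

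Sequencing depth lay between 46907377 and 57610899 reads per library. Markers of adipocytes were abundant in every library (15 genes, 702258 to 2404249 normalized counts summed), and the epithelial gene Epcam was present at 2441 to 9583, as the labelled tissue would hold. Libraries differed in their other cells. B cell markers (15 genes) summed to 8304 to 22796 normalized counts in 4 libraries (CON-LFD 2 and 4, DIO-HFD 2 and 3) and to at least 36647 in the other 12. The macrophage gene Adgre1 reached 18530 in CON-LFD 4, the skeletal muscle gene Acta1 26673 in DIO-LFD 4 and the globin gene Hbb-bs 181465 in DIO-LFD 1. In such bulk tissue, fewer cells of a type and less RNA per cell cannot be told apart.

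Among the H1 genes, Hist1h1c, which encodes the linker histone H1.2, had the highest mean count of the members in each of the 4 groups. It had 1930, 2570, 1842 and 2479 normalized counts in CON-LFD libraries 1 to 4, 1366, 3242, 3249 and 1690 in DIO-HFD, 2162, 2051, 2662 and 4250 in DIO-LFD, and 1548, 2147, 1783 and 2438 in DIO-VSG. The highest and the lowest library belonged to DIO-LFD and DIO-HFD, and all 4 groups overlapped. Hist1h1e, the gene of linker histone H1.4, was far lower and varied more, from 41.1 to 278.3, with DIO-HFD 3 (278.3) and DIO-LFD 4 (274.8) far above the median of 73.1. Hist1h1d, the gene of H1.3, had 5.46 to 37.8 normalized counts, with DIO-LFD 4 again the highest. The summed H1 level was 2336 ± 389.7 (SD, n = 4) in CON-LFD, 2532 ± 1081 in DIO-HFD, 2913 ± 1134 in DIO-LFD and 2076 ± 433 in DIO-VSG.

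Among the H2A genes, Hist2h2aa2 had 1242, 1488, 979.7 and 2307 normalized counts among CON-LFD libraries, 1047, 2013, 3213 and 1336 in DIO-HFD, 1297, 1052, 1357 and 2338 in DIO-LFD, and 1110, 834.7, 658.9 and 1138 in DIO-VSG. All 4 DIO-VSG libraries lay below the median of 1269, although 3 libraries of other groups (CON-LFD 3, DIO-HFD 1 and DIO-LFD 2) lay within their range. Hist3h2a, which lies outside the large clusters, was the steadiest of the 46. Its lowest library had 525 (DIO-HFD 3), its median was 673.5 and its highest library had 768.6 (CON-LFD 2), a coefficient of variation of 9.09% against 31.9% for Hist1h1c and 35.5% for Hist1h2bc. Hist1h2al, a processed pseudogene, had 253.8, 113.4, 226.0 and 502.4 in CON-LFD, and 55.5 to 225 in the 12 DIO libraries. It shares 44.7% of its 76-base stretches with other genes, Hist2h2aa2 among them. The H2A sum was 2643 ± 644 in CON-LFD, 2822 ± 996 in DIO-HFD, 2418 ± 565 in DIO-LFD and 1813 ± 273 in DIO-VSG.

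Among the H2B genes, Hist1h2bc had 2030, 1760, 1360 and 3004 normalized counts among CON-LFD libraries, 1083, 2266, 3556 and 1460 in DIO-HFD, 1811, 1742, 1740 and 2872 in DIO-LFD, and 1343, 1401, 1461 and 2020 in DIO-VSG. DIO-HFD 3 and library 4 of each other group were the highest of their groups, and the groups overlapped. Hist1h2be was highest in the same 4 libraries (677.3, 819.7, 871.4 and 497.5) and had 226.7 to 496.6 in the others. Its gene model overlaps that of Hist1h1e on chromosome 13, and 14.2% of its 76-base stretches occur in other genes, Hist1h1e among them. Hist2h2be, whose transcript shares none of its 76-base stretches with another gene, did not follow them. It had 525, 549, 554 and 401 in CON-LFD, 437, 309, 275 and 486 in DIO-HFD, 443, 541, 582 and 516 in DIO-LFD, and 502, 484, 637 and 532 in DIO-VSG, so that CON-LFD 4 and DIO-HFD 3 were the lowest of their groups, while DIO-LFD 4 and DIO-VSG 4 were not. The H2B sum was 3164 ± 773 in CON-LFD, 3065 ± 1262 in DIO-HFD, 3141 ± 856 in DIO-LFD and 2604 ± 421 in DIO-VSG.

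The H3 genes were the lowest class, with 1.59% of all member counts against 35.3% for H2B. Hist2h3c2 had a median of 49.1 normalized counts, and its highest value, 249.3, was that of DIO-LFD 4. Hist1h3e had 2.77 to 32.7 and Hist2h3b, at 0 in 4 libraries, at most 30.4. The H4 genes held 5.49% of member counts. Hist1h4h had 239.5, 319.1, 157.7 and 357.7 in CON-LFD, 136.9, 334.2, 402.7 and 183.5 in DIO-HFD, 170.3, 176.6, 200.1 and 323.8 in DIO-LFD, and 155.6, 134.9, 181.7 and 251.6 in DIO-VSG. Each group held both low and high libraries, and the groups overlapped. Hist1h4i (43.2 to 112), Hist2h4 (26.6 to 67.5) and Hist1h4k (10.1 to 98.2) followed. Hist1h4k shares 67.9% of its 76-base stretches with other genes, Hist1h4h among them, so its values depend on how reads were divided. The H3 sum was lowest in DIO-VSG 3 (82.1) and highest in DIO-LFD 4 (330), and the H4 sum ran from 345.4 to 667.9. Over all 46 members, the sum was 8766 ± 1772 in CON-LFD, 9024 ± 3435 in DIO-HFD, 9106 ± 2750 in DIO-LFD and 7031 ± 977 in DIO-VSG.

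**Figure D2:**
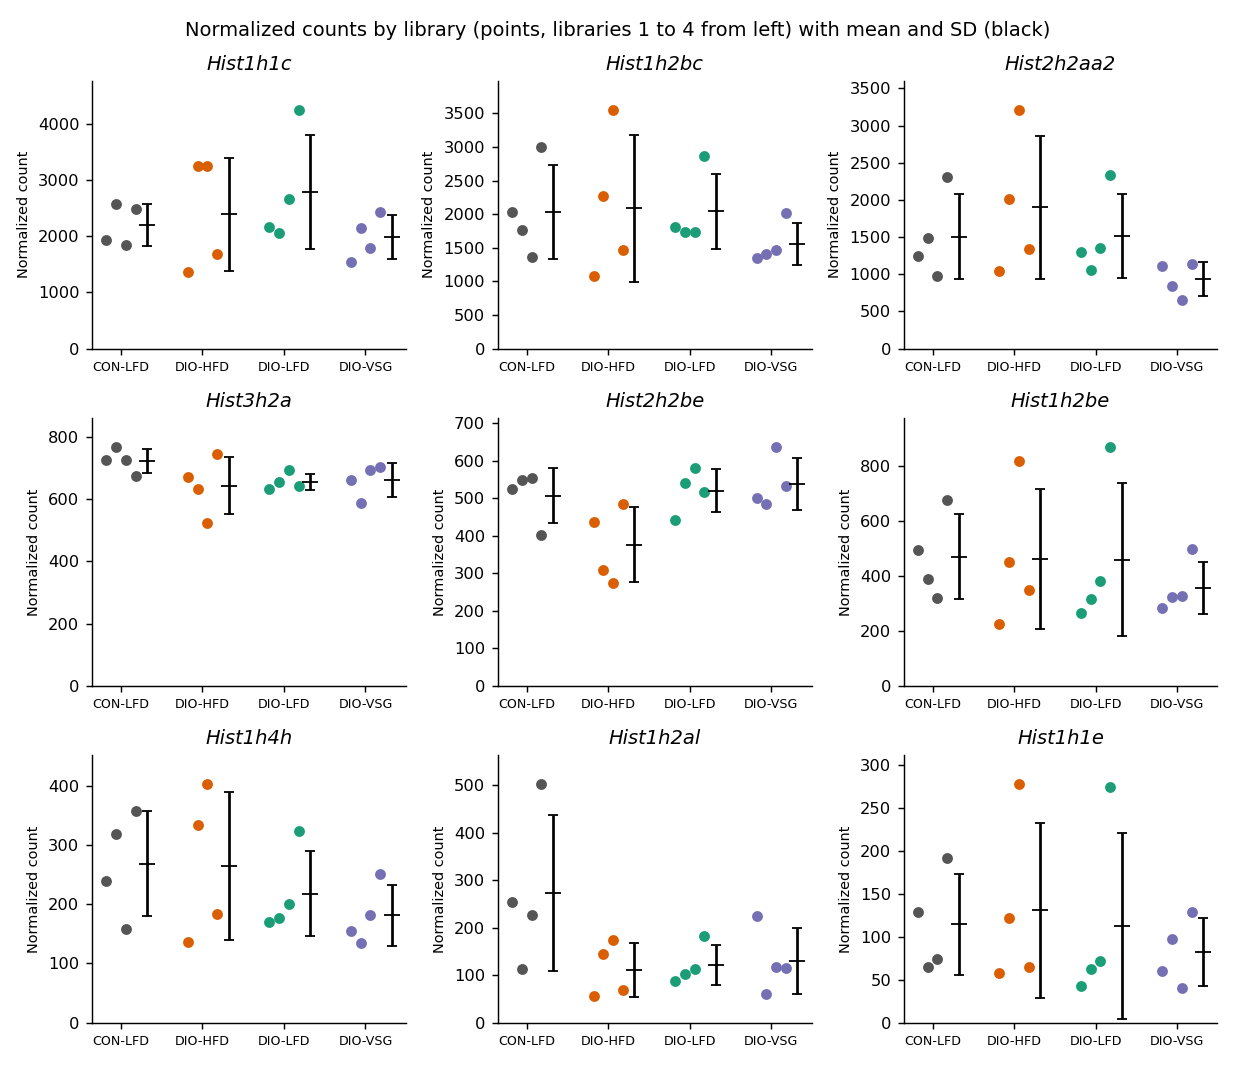
Normalized counts of the 9 most counted members, 1 panel each, with a point per library for the 4 groups and the mean with SD in black. The points of the groups overlap in every panel, DIO-HFD 3 and DIO-LFD 4 are high for most H1, H2A, H2B and H4 genes shown, and Hist3h2a and Hist2h2be are lowest in DIO-HFD 3.

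Group differences were tested with limma on log2(normalized count + 1), which understates the change of low genes, with Benjamini-Hochberg adjustment over 21218 genes. Of the 46 members, 32 reached 10 normalized counts in 4 or more libraries and entered the test. In none of the 6 comparisons did a member pass an adjusted P of 0.05, whether by limma or by voom on the recovered reads. With library quality weights, 6 members passed in DIO-HFD minus CON-LFD, 6 in DIO-VSG minus DIO-HFD, 3 in DIO-LFD minus DIO-HFD, and 1 each in DIO-VSG and DIO-LFD minus CON-LFD, in a fit that gave DIO-HFD 4 a weight of 10.9. The same fit called 19.8%, 17.6%, 8.54%, 19.9% and 0.25% of all genes in these comparisons. Counts at unadjusted P under 0.05 are therefore given beside the share of all tested genes that reached it.

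Obesity was addressed by DIO-HFD minus CON-LFD. Among the members, 4 of 32 (12.5%) reached unadjusted P under 0.05, 1 higher and 3 lower in DIO-HFD, against 12.9% of all genes (5.23% higher and 7.66% lower, with 8 genes or 0.0377% past the adjusted P). Hist1h2al averaged 111 ± 57.7 in DIO-HFD, against 274 ± 164 for lean controls (log2 fold change -1.26, SE 0.49, adjusted P = 0.308). Hist2h2be was 376.6 ± 100.8 against 507.5 ± 72.1 (-0.46, SE 0.18, adjusted P = 0.311). Hist4h4, whose H4 protein is the same as that of the clustered H4 genes, was at 5.68 ± 1.06 against 10.1 ± 3.69, and Hist1h4k at 55.7 ± 29.3 against 26.1 ± 14.8. Adjusted P for these last genes was 0.377 and 0.3435. The groups overlapped for all 32 members, as they did for all but 4.76% of genes. The median log2 fold change of the members was -0.13, beside 0.02 for all genes, and it was 0.17 without DIO-HFD 1. With libraries scaled to equal totals, the median of all genes moved to 0.16 and that of the members to 0.01.

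Weight loss by diet was addressed by DIO-LFD minus DIO-HFD. Unadjusted P was under 0.05 for 2 of 32 members (6.25%), against 8.53% of all genes (0% by adjusted P). Hist2h2be, at 521 ± 58.3 after the diet, was higher than in DIO-HFD (log2 fold change 0.50, SE 0.18, adjusted P = 0.482). Hist1h3f was at 8.47 ± 3.74 against 19.04 ± 8.17 (-1.10, SE 0.42, adjusted P = 0.497) and was the only member whose groups did not overlap, beside 4.51% of all genes. Without DIO-HFD 3, 0 members reached unadjusted P under 0.05 (share of all genes in that fit not given). The median of the members was 0.09 (0.01 for all genes), and it was -0.10 without DIO-HFD 1 and -0.07 without DIO-LFD 4.

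Surgery with low-fat diet was addressed by DIO-VSG minus DIO-HFD. Here 5 of 32 members (15.6%) reached unadjusted P under 0.05, against 13.2% of all genes (0% by adjusted P). Hist2h2be was higher at 539 ± 68.6 normalized counts (0.55, SE 0.18, adjusted P = 0.277), and Hist2h2aa2 was lower at 935 ± 229.5 against 1902 ± 963 (-0.93, SE 0.35, adjusted P = 0.317). The other 3 were H4 genes: Hist4h4 (0.79, SE 0.31) and Hist1h4i (0.58, SE 0.26) were higher and Hist1h4k (-1.06, SE 0.48) lower. Adjusted P for these was 0.328, 0.374 and 0.374. The groups overlapped for all 32 members (6.59% of all genes did not overlap). The count of 5 fell to 1 without DIO-VSG 3 (share of all genes in that fit not given), and the member median of -0.19 turned to 0.02 without DIO-HFD 3 and to 0.03 without DIO-VSG 1.

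The low values of Hist2h2be and the high values of Hist2h2aa2 within DIO-HFD came from libraries 2 and 3, which also had low B cell markers (22796 and 14925 normalized counts summed over 15 genes, against 140718 and 92143 in DIO-HFD 1 and 4). Markers of other cells divided these libraries in the same way. T cell markers (19 genes) summed to 5008 and 2376 against 104861 and 50367, adipocyte markers to 1854385 and 2145943 against 702258 and 1319699, and macrophage markers to 360131 and 557081 against 190628 and 267376. The adipocyte and macrophage lists both include Lpl. Without the 4 libraries low in these markers, the log2 fold change between DIO-VSG and DIO-HFD was 0.22 for Hist2h2be and -0.37 for Hist2h2aa2 (adjusted P = 0.808 and 0.866). DIO-HFD 2 and 3 are among those 4, so smaller differences follow from leaving them out and are no test of cell content. That of Hist2h2be between DIO-HFD and CON-LFD was -0.23 (adjusted P = 0.653). Hist1h4k was at 0.55 in DIO-HFD minus CON-LFD and -0.59 in DIO-VSG minus DIO-HFD. Other members moved away from 0 in the same setting, Hist4h4 to 0.99 in DIO-VSG minus DIO-HFD (adjusted P = 0.694) and Hist1h2al to -1.93 in DIO-HFD minus CON-LFD (adjusted P = 0.602). The part of cell composition in these differences was not tested.

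The routes of weight loss were compared directly as DIO-VSG against DIO-LFD. Unadjusted P was under 0.05 for 2 of 32 members (6.25%), against 9.71% of all genes (0% by adjusted P). Hist4h4 was at 10.9 ± 3.73 normalized counts in DIO-VSG and 5.34 ± 1.117 in DIO-LFD (0.87, SE 0.31, adjusted P = 0.509), and Hist1h4k at 27.7 ± 18.8 against 51.1 ± 5.74 (-1.05, SE 0.48, adjusted P = 0.5095). Among the most counted genes, Hist2h2aa2 differed by -0.66 (95% interval -1.42 to 0.10) and Hist1h1c by -0.45 (-1.08 to 0.18). Without DIO-LFD 4 these differences were -0.43 and -0.22, and without DIO-LFD 2 they were -0.81 and -0.57. No member had groups apart, beside 18.8% of all genes. Without DIO-VSG 3 the count was 0 (share of all genes in that fit not given), and the member median of -0.10 became 0.06 without DIO-LFD 4.

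Against lean controls, 2 of 32 members (6.25%) reached unadjusted P under 0.05 in DIO-VSG, against 17.8% of all genes (0% by adjusted P), and 3 (9.38%) did so in DIO-LFD, against 6.26% (0.00471% by adjusted P). Both comparisons use the same CON-LFD libraries. Hist2h2ac had 0, 0, 13.8 and 1.01 normalized counts in CON-LFD, 6.30 to 11.4 in DIO-VSG and 8.58 to 14.9 in DIO-LFD. CON-LFD 3 lay among the DIO libraries while the other controls were at or near 0. The log2 fold change was 1.98 (SE 0.78, adjusted P = 0.268) for DIO-VSG and 2.38 (SE 0.78, adjusted P = 0.6015) for DIO-LFD. With a pseudocount of 5 it was 0.86 and 1.15, and without the 4 libraries low in B cell markers 1.25 and 1.66. Without CON-LFD 3 it was 2.86 for DIO-VSG, with an adjusted P of 0.037, in a fit that called 873 of all genes (4.11%) and 1 of 32 members. Hist1h4d was at 28.5 ± 10.5 in DIO-VSG against 10.3 ± 9.14 (1.97, SE 0.78, adjusted P = 0.268), and the difference was 1.03 without CON-LFD 2 and 0.74 without the 4 libraries low in B cell markers. In DIO-LFD the other members were Hist4h4 (-0.77, SE 0.31) and Hist1h4k (1.13, SE 0.48), and the Hist1h4k values of DIO-LFD lay above all of CON-LFD (3.53% of all genes did not overlap, and 7.02% in DIO-VSG, where no member was among them). Member medians were -0.13 for DIO-VSG and 0.02 for DIO-LFD.

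In a test of any difference among the 4 groups, 4 of 32 members (12.5%) had unadjusted P under 0.05, against 12.7% of all genes, and the lowest adjusted P was 0.379. These were Hist4h4, Hist2h2be, Hist2h2ac and Hist1h4k. Of them only Hist2h2be had a mean above 100 normalized counts. For the 3 members highest per kb the unadjusted P was 0.104 (Hist2h2aa2), 0.648 (Hist1h2bc) and 0.512 (Hist1h1c).

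**Figure D3:**
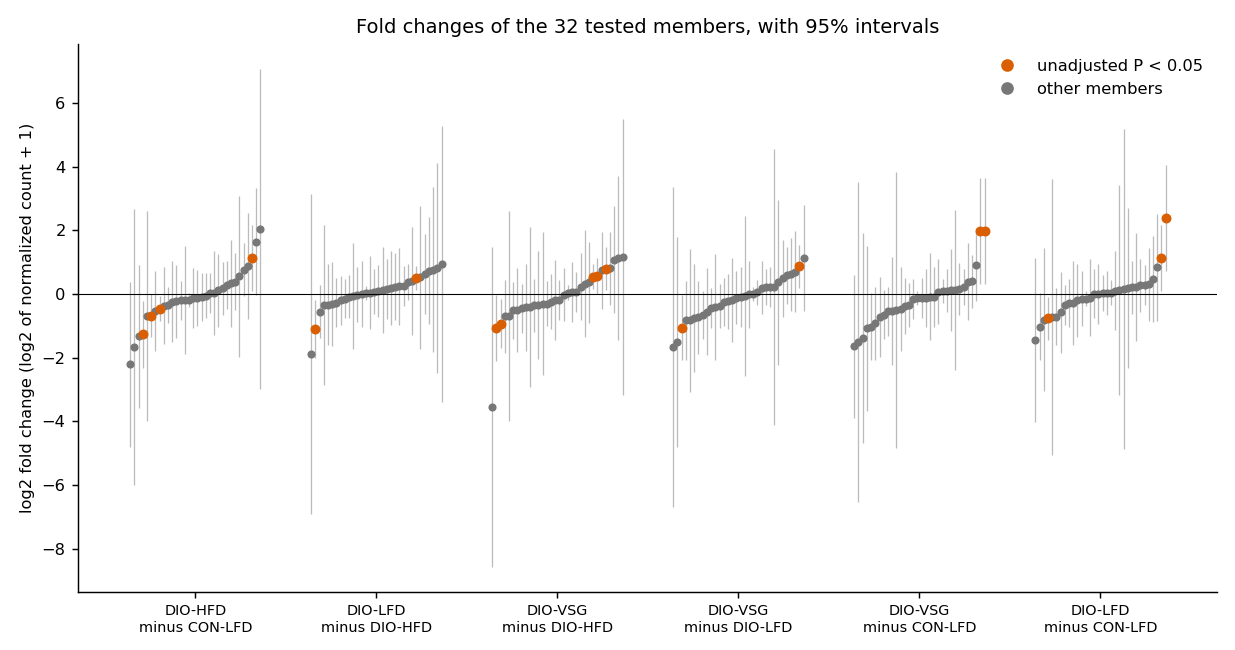
Log2 fold changes of the 32 tested members in each of the 6 comparisons, ordered within a comparison, with 95% intervals as lines and members at unadjusted P under 0.05 in orange. Members lie on both sides of 0 in every comparison, and the widest intervals belong to the near-identical copies Hist1h2ap and Hist1h2ao, which were at 0 in 8 and 5 libraries.

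The most counted members varied together between libraries. Log2 levels of the 9 members gave 36 pairs, tested over 16 libraries by permutation (100000 resamples) with adjustment over the 36, and 18 pairs were positively and 2 negatively correlated at adjusted p under 0.05. By rank, Hist1h2al with Hist1h2be and with Hist1h2bc did not pass (adjusted p = 0.0778 and 0.134), nor did either negative pair. The members were chosen for their level after values were seen. Hist1h1c, Hist1h1e, Hist1h2bc, Hist1h2be, Hist1h4h and Hist2h2aa2 formed a set in which all 15 pairs were positive. Its weakest pair was Hist1h1c with Hist1h1e (r = 0.724, adjusted permutation p = 0.00353, Spearman rho = 0.659, adjusted p = 0.0178, r = 0.616 without the 2 farthest libraries). For Hist1h2bc and Hist1h4h, an H2B and an H4 gene of the Hist1 cluster, r was 0.902 (adjusted permutation p = 0.000144, rho = 0.897, adjusted p = 0.00054, r = 0.846 without the 2 farthest libraries). Hist2h2aa2 of the Hist2 cluster on another chromosome also followed Hist1h4h (r = 0.847, adjusted permutation p = 0.000144, rho = 0.850, adjusted p = 0.0006, r = 0.871 without the 2 farthest libraries). Within groups, that is for deviations from group means, r of these 3 pairs was 0.792, 0.922 and 0.871. The highest r, 0.929, was that of Hist1h2be and Hist1h1e, whose models overlap.

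Hist3h2a and Hist2h2be stood outside this set. They correlated with each other (r = 0.685, adjusted permutation p = 0.0115, rho = 0.624, adjusted p = 0.0282, r = 0.504 without the 2 farthest libraries, 0.848 within groups). With the members of the set, r was negative for each of them, from -0.178 to -0.717. Without the 2 farthest libraries these 12 values lay between -0.657 and 0.009, and by rank between -0.441 and 0, with none at adjusted p under 0.05. The strongest of these, Hist2h2aa2 with Hist2h2be (r = -0.717, adjusted permutation p = 0.0043), was not significant by rank (rho = -0.441, adjusted p = 0.149) and was r = -0.447 without the 2 farthest libraries and -0.732 within groups. The other negative pair, Hist1h2bc with Hist2h2be (r = -0.547, adjusted permutation p = 0.0487), had rho = -0.344 (adjusted p = 0.298) and r = -0.163 without those libraries. All values of a library share its depth and composition.

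**Figure D4:**
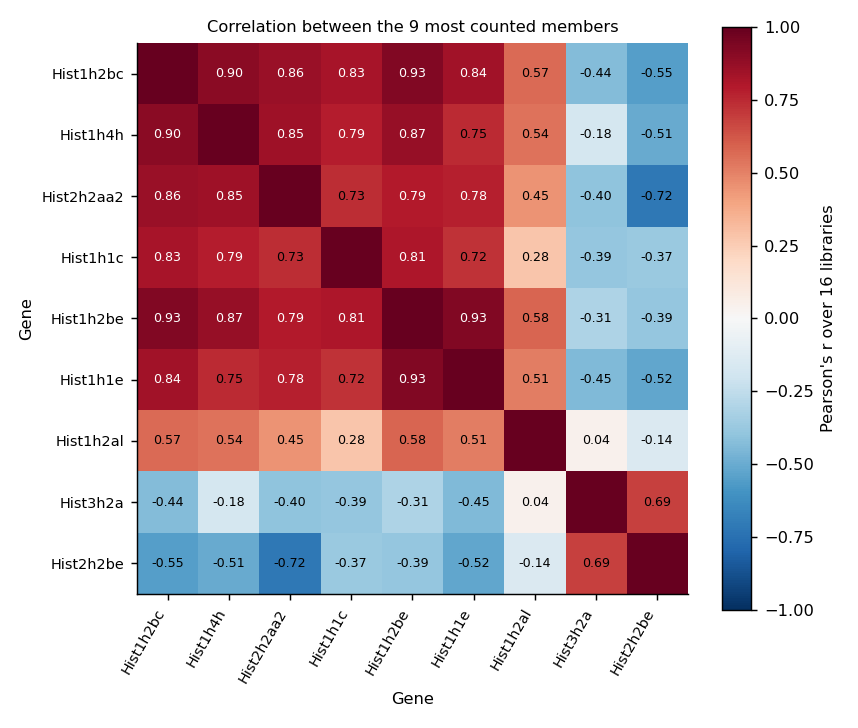
Pearson's r between log2 levels of the 9 most counted members over 16 libraries, with red for positive and blue for negative values. The first 6 genes form a block with r from 0.72 to 0.93, and Hist3h2a and Hist2h2be correlate with each other at 0.69 and negatively with those genes.

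Because these genes are named for replication, each of the 9 was compared with the summed level of 48 DNA replication genes, 40 mitosis genes and 15 adipocyte marker genes in the same libraries, 27 relations in all. With DNA replication genes, 0 of 9 members were correlated at adjusted permutation p under 0.05, and r was negative for all 9, from -0.571 (Hist1h1c, unadjusted permutation p = 0.0205, adjusted p = 0.0922) to -0.040 (Hist1h1e, adjusted p = 0.95). Within groups that of Hist2h2be was 0.206, and without the 4 libraries low in B cell markers that of Hist3h2a was 0.186. With mitosis genes, 0 of 9 passed, with r from -0.380 to 0.169. Without the 2 farthest libraries these values were lower for most members, at -0.698 for Hist1h1c, -0.662 for Hist1h2bc, -0.644 for Hist1h4h and -0.537 for both Hist2h2aa2 and Hist1h2be. With adipocyte markers, 2 of 9 passed. For Hist1h2bc r was 0.761 (adjusted permutation p = 0.0121, rho = 0.841, adjusted p = 0.00216, r = 0.810 without the 2 farthest libraries), and for Hist1h4h r was 0.732 (adjusted p = 0.0126, rho = 0.724, adjusted p = 0.0313, r = 0.939 without the 2 farthest libraries). Within groups these values were 0.772 and 0.784, and without the 4 libraries low in B cell markers 0.750 and 0.584. For Hist1h1c and Hist2h2aa2, r was 0.625 and 0.591 (adjusted permutation p = 0.0904 and 0.0922), and by rank Hist2h2aa2 passed (rho = 0.679, adjusted p = 0.0475) but had r = 0.392 without the 4 libraries low in B cell markers. For Hist3h2a and Hist2h2be r was -0.119 and -0.275 (adjusted p = 0.836 and 0.533). That of Hist2h2be was -0.631 within groups and 0.182 without those 4 libraries, and that of Hist3h2a was -0.356 and -0.012. The adipocyte sum was lowest in DIO-HFD 1 (702258), where Hist1h1c, Hist1h2bc and Hist1h2be were lowest too. It was highest in DIO-LFD 1 (2404249), where the sum of all members (7436) was in the middle of the 16 libraries. The adipocyte sum adds normalized counts, so genes with the most counts weigh most in it. In DIO-LFD 1, Adipoq (77441) and Plin1 (74794) lay below their highest values (123530 and 102756, both in CON-LFD 4). The sum of macrophage markers was the second lowest in DIO-LFD 1 (228785), while the macrophage gene Adgre1 was at 2914 there, above its median of 1426. The relation of members to macrophage markers was not tested.

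**Figure D5:**
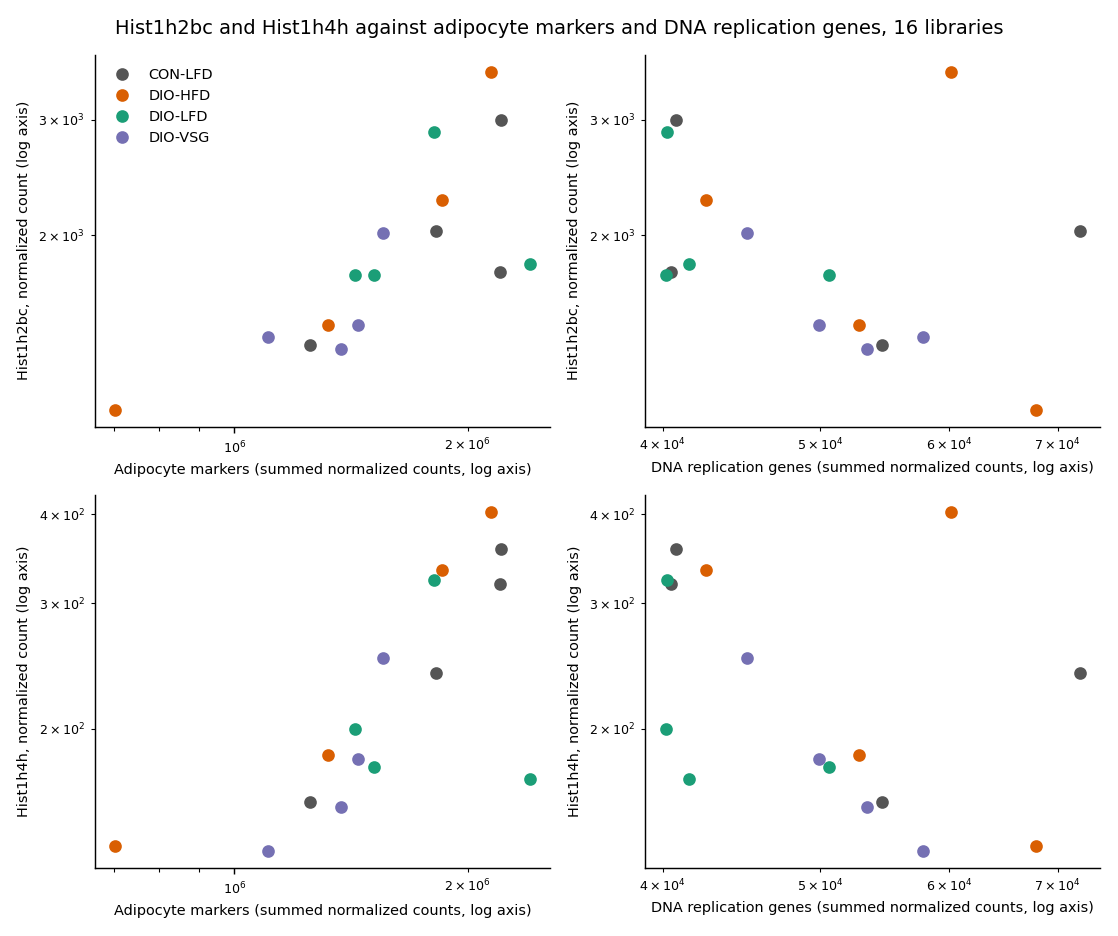
Normalized counts of Hist1h2bc and Hist1h4h (log axes) against the summed normalized counts of adipocyte markers on the left and of DNA replication genes on the right (log axes), 1 point per library, coloured by group. Points rise with the adipocyte sum (r = 0.761 and 0.732) and do not rise with the replication sum (r = -0.341 and -0.396).

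Genes that act with the histone genes were read in the same fit. Of 30 listed factors of histone gene transcription and mRNA 3′ processing, 0 passed the adjusted P of 0.05 in any comparison. Slbp, the stem-loop binding protein, had 1325 to 2170 normalized counts, Npat, the activator of histone gene transcription, 1222 to 1972, Casp8ap2, its partner in histone locus bodies, 1172 to 1995, and Lsm11, part of the U7 particle that cuts histone pre-mRNA, 457 to 689.8. Slbp was lowest in CON-LFD 4, the CON-LFD library in which Hist1h2bc and Hist2h2aa2 were highest. At unadjusted P under 0.05, 2 of the 30 were higher in DIO-HFD minus CON-LFD (beside 5.23% of all genes in that direction) and 4 in DIO-VSG minus DIO-LFD (4.3%). In DIO-LFD minus DIO-HFD 3 were lower (3.16%). In DIO-VSG minus CON-LFD 6 were higher, and 1 was lower in each of DIO-VSG minus DIO-HFD and DIO-LFD minus CON-LFD. For these comparisons 17.8%, 13.2% and 6.26% of all genes reached that P in either direction. Casp8ap2 had the smallest P in DIO-VSG minus DIO-LFD (log2 fold change 0.37, unadjusted P = 0.0215, adjusted P = 0.509). Of 12 tested replication-independent variants and 32 histone chaperones, 0 passed the adjusted P in any comparison. H2afj had the smallest P of the variants in DIO-LFD minus DIO-HFD (0.32, unadjusted P = 0.00407, adjusted P = 0.434), and Hira, the H3.3 chaperone, of the chaperones in DIO-HFD minus CON-LFD (0.26, unadjusted P = 0.0115, adjusted P = 0.263).

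Proliferation genes had other medians than the members in the same comparisons. In DIO-LFD minus DIO-HFD, the log2 fold change was below 0 for all 40 mitosis genes (median -1.09) and all 48 DNA replication genes (median -0.37), while 13 of 32 members were below 0 (median 0.09). Unadjusted P was under 0.05 for 19 mitosis and 10 replication genes, beside 3.16% of all genes in that direction, and 0 passed the adjusted P. In DIO-VSG minus DIO-HFD the medians were -0.65 for mitosis genes, -0.09 for replication genes and -0.19 for members. No test of the difference between these lists was run. Mki67, a marker of cycling cells, had 11093, 2325, 5214 and 2976 normalized counts among CON-LFD libraries, 8354, 1711, 2675 and 3623 in DIO-HFD, 953, 2894, 1564 and 1849 in DIO-LFD, and 3448, 4076, 3015 and 2176 in DIO-VSG. It was highest in CON-LFD 1 and DIO-HFD 1, and in DIO-HFD 1 the sum of all members was the lowest of the 16 libraries (5728). DIO-HFD 3 went the other way, with the highest member sum (13395), the highest level of Top2a (6526) and a mitosis sum of 61706, second to 67284 in CON-LFD 1. Pcna ran from 2200 to 3962, Mcm5 from 639 to 1924, Rrm2 from 218 to 1210 and Top2a from 738 to 6526.

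The sum of all members was 13395 in DIO-HFD 3, 13167 in DIO-LFD 4 and 11139 in CON-LFD 4. Summed B cell markers were 14925, 56936 and 17267 there, within a range of 8304 to 140718 over all libraries. Adipocyte markers were 2145943, 1811187 and 2211729. Summed macrophage markers (18 genes) were 557081, 478631 and 592311 in the same libraries, the highest of the 16, with the next at 406137 in CON-LFD 1. The macrophage list shares Lpl with the adipocyte list, so these sums are not separate. Adgre1, a gene of the macrophage list, was at 2297 in DIO-HFD 3, 1377 in DIO-LFD 4 and 18530 in CON-LFD 4, with a median of 1426. The lowest member sum, that of DIO-HFD 1, stood beside the highest B cell sum, the lowest adipocyte sum and the lowest macrophage sum (190628). What these differences in cell content contributed to member levels was not tested.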

How the data were processed

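The members and gene lists were chosen with earlier results of these data known. Groups came from the sample titles. The authors prepared stranded total RNA libraries, and their methods name STAR, salmon and a Gencode annotation of unstated release, whereas the submitters' processing notes name TopHat2 2.0.7, HTSeq 0.5.3p9 and DESeq2 on mm10. How strand was used in counting is not given in the sources used here. The deposited values, described as normalized counts, were log2 values from the authors' variance-stabilizing transformation, and no gene had fewer than 10 reads in all. The planned design assumed normalized counts, so the transformation was inverted. Multiplying by the size factors (0.9036 to 1.2204) gave whole reads for 100.0% of values (tolerance 0.05). There were 0 columns of values without a sample. At 46907377 to 57610899 reads per library, counting limits mainly the members near 0.

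Tests used limma 3.58.1 (R 4.3.3, lmFit and eBayes with trend) on log2(normalized count + 1) with group as the term, for genes that reached 10 normalized counts in 4 or more libraries. They were tested on simulated data. Permutation tests were two-sided (scipy 1.17.1). Annotation came from GENCODE M21 on GRCm38, and promoters from RefSeq. Named members were the top 3 of each class per kb, the 5 with the smallest P per comparison and in the test over groups, and 6 fixed genes. Alternatives covered pseudocount, filters, the deposited log2 values, voom, scaling, library weights, pairs of groups alone, replicate block and each library left out.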

Additional observations from a re-analysis of the deposited data

Results flagged for a closer look

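Each group of 4 libraries was examined for a library whose gap to its neighbour, as a share of the group's range, exceeded Dixon's 95% critical value. Of 112 groups examined, 9 (8.04%) did so, where chance flags about 1 in 20 if values are normally distributed. The groups were of members and of sums that contain them, so they were not independent and the rates cannot be compared closely. DIO-LFD 4 accounted for 5. It had 275 normalized counts of Hist1h1e, with the next DIO-LFD library at 72.4, and 2872 of Hist1h2bc, with the next at 1811. Within DIO-LFD it also had the highest sums of H2B (4416, next 2844), H3 (330, next 129) and H4 (609, next 423). Among all 16 libraries it had the highest level of the muscle gene Acta1 (26673), and the part of that in these values was not tested.

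CON-LFD 3 was high for Hist2h2ac (13.8, next 1.01) and Hist2h3b (30.4, next 13.8), both low genes. Hist1h2bg was at 24.0 in DIO-HFD 3 (next 13.3). The sum of all members was 8485 in DIO-VSG 4 and 6704 in the next DIO-VSG library.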

How the results depend on the processing

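Under 28 alternatives to the settings of the report, none of the 30 fold changes followed, the 5 with the smallest P in each comparison, reversed (those of other named members, some near 0, were not followed), while medians of members changed sign where their range below spans 0. The number of members at unadjusted P under 0.05 moved as follows. A pseudocount of 5 left 1 in DIO-VSG minus CON-LFD. A stricter filter, which kept 16 members, left 3 in DIO-VSG minus DIO-HFD, 1 in DIO-LFD minus DIO-HFD, 0 in DIO-VSG minus DIO-LFD, 0 in DIO-VSG minus CON-LFD and 1 in DIO-LFD minus CON-LFD. The deposited log2 values gave 1 in DIO-VSG minus DIO-LFD. Equal library totals gave 1 in DIO-LFD minus DIO-HFD and 1 in DIO-VSG minus DIO-LFD, beside 9.47% and 8.08% of all genes. Quantile normalization gave 2 in DIO-HFD minus CON-LFD, 3 in DIO-VSG minus DIO-HFD and 1 in DIO-VSG minus DIO-LFD, beside 12.2%, 13.4% and 10.9%. Fits on 2 groups alone gave 1 in DIO-HFD minus CON-LFD and 4 in DIO-VSG minus DIO-LFD, beside 7.94% and 25.3%. For the pseudocount, the stricter filter and the deposited log2 values the share of all genes is not given here.

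Library weights gave adjusted calls of 6 (DIO-HFD minus CON-LFD), 6 (DIO-VSG minus DIO-HFD), 3 (DIO-LFD minus DIO-HFD), 1 (DIO-VSG minus CON-LFD), 1 (DIO-LFD minus CON-LFD) and 8 (any difference), and unadjusted calls of 10, 10, 9, 6 (DIO-VSG minus DIO-LFD) and 5 (DIO-LFD minus CON-LFD). Of all genes, 37.5%, 33.9%, 26.4%, 25.9% and 17% reached the unadjusted P in that fit, in the same order. That fit called 7387 of 21218 genes for any difference, and the cause was not tested. Voom called 0 members.

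Same-numbered libraries did not deviate together (24 pairs, r from -0.609 to 0.534, 9 over 0.1), so the numbers do not pair samples. The replicate block gave 3 unadjusted calls in DIO-VSG minus DIO-HFD and 1 in DIO-VSG minus DIO-LFD, beside 11.8% and 8.81% of all genes. Without the 4 libraries low in B cell markers, an alternative chosen after seeing the data, the counts were 2 in DIO-HFD minus CON-LFD, 2 in DIO-VSG minus DIO-HFD, 4 in DIO-VSG minus DIO-LFD, 1 in DIO-VSG minus CON-LFD and 1 in DIO-LFD minus CON-LFD, beside 7.54%, 6.95%, 21.7%, 5.12% and 8.16% of all genes, and the median of DIO-VSG minus DIO-HFD was 0.22.

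With each library left out in turn, adjusted calls stayed at 0 except for 0 to 1 in DIO-VSG minus CON-LFD (Hist2h2ac without CON-LFD 3, where 4.11% of all genes were called). Unadjusted calls ranged from 2 to 4 in DIO-HFD minus CON-LFD, 1 to 5 in DIO-VSG minus DIO-HFD, 0 to 3 in DIO-LFD minus DIO-HFD, 0 to 3 in DIO-VSG minus DIO-LFD, 1 to 3 in DIO-VSG minus CON-LFD and 1 to 4 in DIO-LFD minus CON-LFD. The share of all genes at unadjusted P in these fits is not given here, so a change in these counts cannot be told from a change over all genes. Medians ranged from -0.23 to 0.17, -0.26 to 0.03, -0.10 to 0.24, -0.34 to 0.06, -0.25 to -0.09 and -0.15 to 0.11 in the same order. Depth limits the members near 0, where 3 reads or fewer were counted in 8 or more libraries for 9 members.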
